A study of Mus musculus with 10 samples.

Results

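Astrocyte and endfoot genes were followed in the transcriptome of brain endothelial cells (BECs) isolated from APP/PS1 females aged 1 year and from controls of that age. The 10 genes, chosen by name as markers of astrocytes and of their perivascular endfeet, were Gfap, Aqp4, Slc1a2, Slc1a3, Glul, Gja1, Gjb6, Aldoc, S100b and Sparcl1, and 10 of 10 were among the 14106 genes measured. Bulk RNA sequencing covered 10 libraries of BECs, with 5 libraries per group, numbered as replicates 1 to 5 in each. APP/PS1 mice (APPswe/PS1ΔE9) carry a chimeric mouse and human amyloid precursor protein with the Swedish mutation and a mutant human presenilin 1. The study describes both transgenes as ubiquitously expressed. The controls, with the genotype label WT, were female mice of the same C3H/BL6 background. Cells of both groups came from the perfused cortex after removal of the meninges and of myelin, and were enriched with CD31 microbeads. Neither the labels nor the methods state whether a library stands for 1 mouse or for a pool. The p values of the main model below measure the spread of the differences between libraries of the same replicate number. That spread need not be the one between mice.

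Astrocytes send processes to the wall of nearly every vessel of the brain, where the tips flatten into endfeet that cover endothelial cells and pericytes. The endfoot membrane is rich in the water channel aquaporin-4 and the potassium channel Kir4.1, both anchored through the dystrophin complex to the basement membrane. Astrocytes also clear glutamate from the synapse, convert it to glutamine, and are joined to one another by gap junctions. Endfoot fragments can remain attached to vessels when brain tissue is dissociated. Not all genes used as astrocyte markers are particular to astrocytes: Sparcl1 and Glul are also transcribed in brain endothelial cells, and Gja1 is found in vascular cells.

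All values are log2 CPM, the base-2 logarithm of the counts of a gene scaled to the total counts of its library (CPM), with a small constant added. A fold change on this scale understates the change of a gene with few counts. The authors had corrected the values for batch, which set the mean of the 2 libraries of each replicate number to almost the same level in all 5 pairs. The median SD over genes was 0.00353 for the pair means and 0.0863 for the deviation of a library from its pair mean. In consequence the 2 libraries of a pair mirror each other, and the spread within a group follows from the paired differences but is smaller. For Gfap the SD was 0.14 in controls and 0.15 in APP/PS1, against 0.29 for its paired differences. The SDs given below therefore do not show the spread between uncorrected libraries. The difference between APP/PS1 and control was therefore taken within pairs, with the linear model of limma and the replicate number as a block. Adjusted p values are Benjamini-Hochberg values over 14106 genes. The corrected counts of a library summed to 22993426 to 126686149 in controls and to 22371766 to 114525432 in APP/PS1, with replicate 1 the lowest in both groups.

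Endothelial markers dominated these libraries. The 20 endothelial markers, such as Slc2a1, the glucose carrier of the barrier, had a median control level of 8.28 log2 CPM per kb of exon and summed to 39855 to 41311 CPM in controls and 39354 to 40833 CPM in APP/PS1. The median level per kb of exon in controls was 2.67 over 14 mural markers, 1.20 over 10 oligodendrocyte markers, −0.94 over 8 neuron markers and −1.24 over 13 microglia markers. Over 36 other astrocyte genes it was −0.08. Over 4 erythroid markers it was 3.51. By their medians these lists thus lay below the endothelial markers, but single genes did not. Mal, an oligodendrocyte marker (8.16), and Rgs5, a mural marker (6.70), lay above the lowest endothelial marker, Sox17 (6.39). In such bulk libraries fewer cells of a type and less RNA per cell cannot be told apart.

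The 10 genes spanned a wide range of levels, which are compared here per kb of exon. In controls, Sparcl1 had the highest mean level (9.56 ± 0.10 log2 CPM per kb, SD, n = 5), followed by Glul (9.10 ± 0.09) and Gja1 (3.73 ± 0.17). These 3 genes did not overlap with one another or with any of the other 7 in any library. Slc1a2 (0.85 ± 0.76), Aldoc (0.65 ± 0.83), Slc1a3 (0.46 ± 0.37), S100b (−0.01 ± 0.51) and Gfap (−0.80 ± 0.14) followed, each overlapping with the next in the order. Gjb6 (−2.12 ± 0.64) and Aqp4 (−2.80 ± 0.59) stood lowest and overlapped with each other. In APP/PS1 the first 3 places were unchanged in order, and the 7 genes below them ran from Slc1a3 (−0.40 ± 0.49) to Aqp4 (−3.90 ± 0.84) with every neighbour overlapping. Without division by length, 7 of the 10 genes had a mean over all 10 libraries below 4.30 log2 CPM, the midpoint of the levels of all genes. By the control mean it would be 6 of 10, since Slc1a2 (4.56 in controls, 3.09 in APP/PS1) lay above the control midpoint of 4.31. Sparcl1, Glul and Gja1 lay above it, at the 99.8, 99.7 and 90.4 percentile of all genes. This split into 7 low and 3 high genes was made after the values were seen.

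**Figure D1:**
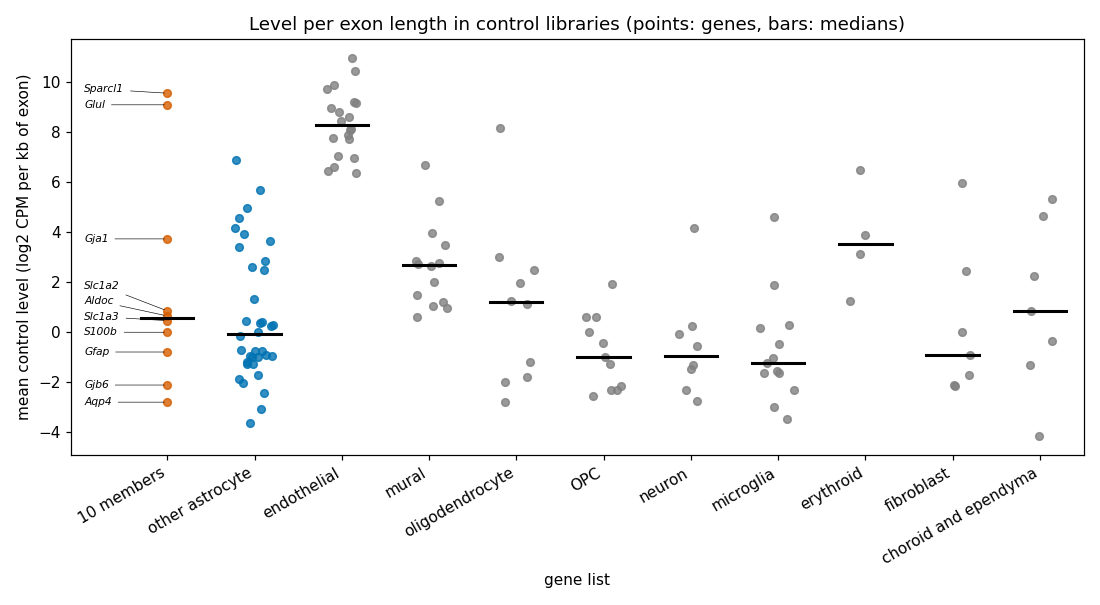
Mean control level in log2 CPM per kb of exon (vertical axis) for the 10 genes, 36 other astrocyte genes and markers of the cell types named on the horizontal axis; each point is a gene and each bar a median. Sparcl1 and Glul lie among the endothelial markers (median 8.28), and Gjb6 and Aqp4 lie below the neuron and microglia medians (−0.94 and −1.24).

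No astrocyte or endfoot gene differed between APP/PS1 and control BECs at an adjusted p under 0.05 in limma with the replicate block. Neither did any of the 14106 genes (0.00% called). The paper, in contrast, reported genes both higher and lower in APP/PS1 with limma at that threshold and a fold-change limit. Its methods name no replicate block. At an unadjusted p under 0.05, 3 of the 10 genes were lower in APP/PS1 (Gfap, S100b and Slc1a3), beside 5.91% of all genes. None of the 10 was higher at that level, beside 2.13% of all genes. The fitted difference was negative for all 7 low genes and positive for the 3 high genes, with a median of −0.96 over the 10 genes against −0.00377 over all genes. The same direction in all 5 pairs was seen for 1 of the 10 genes, Gfap, which was lower in each, beside 5.00% of all genes, and 0 of the 10 were higher in each, beside 2.99%. With the 5 pairs as block the model keeps 4 residual degrees of freedom. Without the block, 2 of the 10 genes passed the threshold, Gfap (adjusted p = 0.0223) and S100b (adjusted p = 0.0331), as did 648 genes in all, but that model does not count the degrees of freedom spent on the batch correction.

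**Figure D2:**
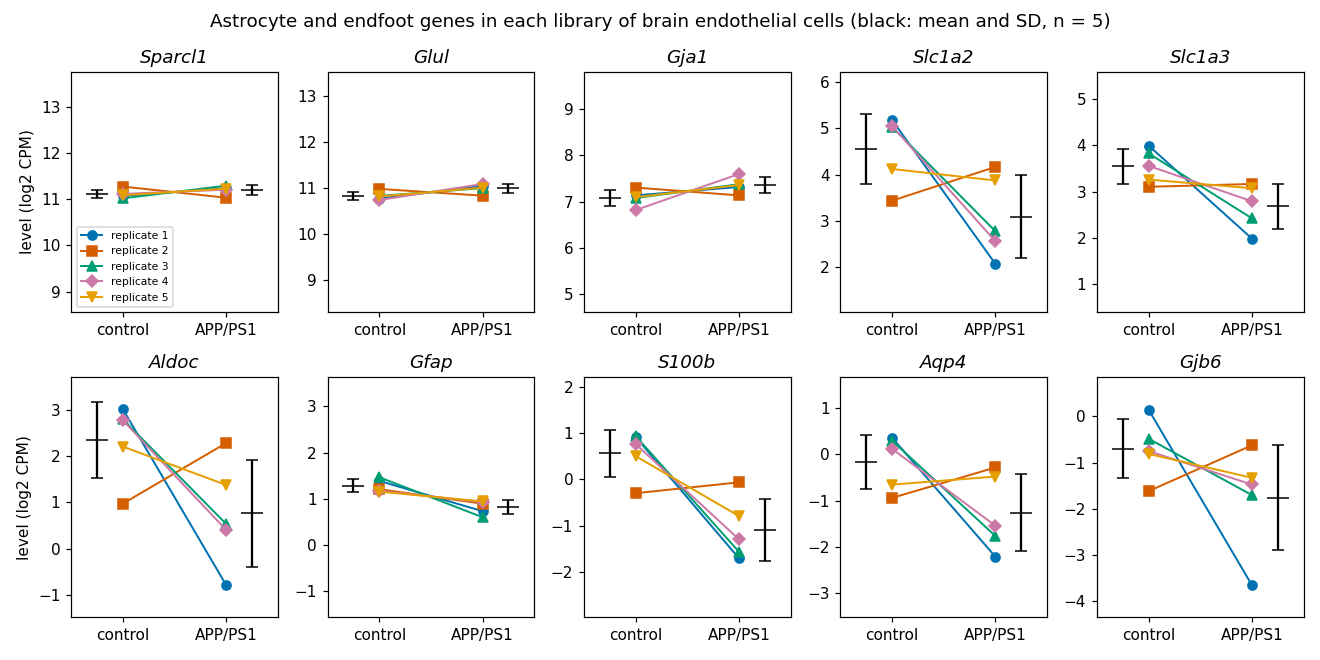
Level in log2 CPM (vertical axis) of each gene in the 5 control and 5 APP/PS1 libraries; lines join the libraries of a replicate number and black marks give the mean and SD (n = 5), on axes that each span at least 5.2 log2 units. Replicate 2 runs opposite to replicates 1, 3 and 4 in 9 of 10 genes, all but Gfap.

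Gfap encodes the glial fibrillary acidic protein, the intermediate filament of astrocytes, and lies at chr11:102887336-102900912 on the minus strand (GRCm38). In controls it measured 1.39, 1.21, 1.47, 1.18 and 1.16 log2 CPM in replicates 1 to 5. In APP/PS1 it measured 0.73, 0.89, 0.60, 0.93 and 0.94 log2 CPM. Every APP/PS1 library was below every control library, a separation in the lower direction that 4.96% of all genes also showed. Since the batch correction set the pair means almost equal, this nearly restates that Gfap was lower in all 5 pairs (5.00% of all genes). It does not describe the uncorrected libraries. The fitted log2 fold change of Gfap was −0.46 (SE 0.113, 95% interval −0.74 to −0.18, adjusted p = 0.537), a control level 1.38 times that of APP/PS1. The paired differences were largest in replicates 3 (−0.87) and 1 (−0.66) and lay between −0.31 and −0.21 in the other 3. Without replicate 3 the fitted difference was −0.36 and without replicate 1 it was −0.41. Gfap had 36 to 281 corrected counts per library. By unadjusted p (0.0072) it ranked 186 of 14106 genes.

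S100b, a calcium-binding protein of the S100 family made by astrocytes and also by cells of the oligodendrocyte lineage, showed the most negative fitted difference of the 10 genes. It lies at chr10:76253853-76261159 on the plus strand. In controls it measured 0.91, −0.30, 0.93, 0.76 and 0.50 log2 CPM, and in APP/PS1 −1.71, −0.06, −1.57, −1.30 and −0.79. The groups overlapped through replicate 2 alone, whose APP/PS1 library lay above its control. The fitted value was −1.65 (SE 0.439, 95% interval −2.73 to −0.57, adjusted p = 0.537), a control level 3.14 times that of APP/PS1. Its lowest library held 6 corrected counts. The 3′ end of S100b overlaps the opposite-strand gene Dip2a, but no exons of the 2 genes overlap.

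Promoters of these genes are shown for the pair of genes with the smallest unadjusted p values and for Glul, a gene of high level that went the other way. The sequences are RefSeq entries on GRCm38.p6, from 250 bases before to 50 bases after the annotated start, written 5′ to 3′ on the strand of the gene. Capitals mark the motifs searched on both strands: the TATA box (TATAAA), the CCAAT box (CCAAT), the GC box that binds Sp1 (GGGCGG) and the half-site of nuclear factor I (TTGGCA). The CCAAT box can share letters with TTGGCA.
Gfap (chr11:102897151-102897450, minus strand): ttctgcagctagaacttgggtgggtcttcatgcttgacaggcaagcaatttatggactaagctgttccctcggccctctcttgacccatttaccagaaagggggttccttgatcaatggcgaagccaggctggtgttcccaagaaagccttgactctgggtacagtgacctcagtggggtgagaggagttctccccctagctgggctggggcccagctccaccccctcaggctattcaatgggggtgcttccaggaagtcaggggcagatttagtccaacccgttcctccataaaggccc
S100b (chr10:76253586-76253885, plus strand): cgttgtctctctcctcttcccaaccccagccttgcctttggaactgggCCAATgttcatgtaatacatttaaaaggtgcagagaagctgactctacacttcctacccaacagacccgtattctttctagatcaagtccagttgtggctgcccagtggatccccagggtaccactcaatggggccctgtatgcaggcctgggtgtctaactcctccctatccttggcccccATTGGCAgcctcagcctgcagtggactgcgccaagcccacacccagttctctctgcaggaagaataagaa
Glul (chr1:153899679-153899978, plus strand): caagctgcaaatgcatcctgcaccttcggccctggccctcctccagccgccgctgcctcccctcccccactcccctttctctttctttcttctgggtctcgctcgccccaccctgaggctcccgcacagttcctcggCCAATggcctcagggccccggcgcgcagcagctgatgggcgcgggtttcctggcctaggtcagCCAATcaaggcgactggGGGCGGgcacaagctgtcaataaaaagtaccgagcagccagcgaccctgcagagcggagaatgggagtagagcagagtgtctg
The Gfap window held none of these letters and 3 CpG dinucleotides, and its GC content was 55.7%. The S100b window held 3 CpG dinucleotides and 2 CCAAT matches, of which 1, on the minus strand, shares letters with a TTGGCA match. The Glul window held 17 CpG dinucleotides, 2 CCAAT matches and 1 GGGCGG match, with a GC content of 64.3%. Over 32851 RefSeq promoters of the same length, the median was 7 CpG dinucleotides and 52.7% GC, and a TATA box was held by 13.6%, a CCAAT box by 37.4%, a GC box by 35.7% and a half-site by 14.1%. Entries were found for 8 of the 10 genes. The windows of Slc1a2 and Slc1a3 held 1 and 3 CpG dinucleotides, and that of Gja1 held 8. The Gfap and Slc1a2 windows lie at starts inside the gene positions given in the text, away from the 5′ ends. Their counts do not describe the sequence at those 5′ ends.

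Glutamate uptake and its conversion to glutamine are represented by 3 of the genes. Slc1a2 encodes GLT-1, the main glutamate transporter of forebrain astrocytes, and lies at chr2:102658659-102790784 on the plus strand. It measured 5.18, 3.44, 5.03, 5.05 and 4.12 log2 CPM in controls and 2.07, 4.17, 2.77, 2.56 and 3.87 in APP/PS1. APP/PS1 replicates 1, 3 and 4 lay below every control library, while APP/PS1 replicates 2 and 5 lay within the control range. Slc1a2 had a log2 fold change of −1.48 (SE 0.609, 95% interval −2.98 to 0.03, adjusted p = 0.630). An antisense transcript, Gm13872, overlaps exons of Slc1a2, and whether the counting used strand is not stated.

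Slc1a3 encodes GLAST, the second glutamate transporter of astrocytes, and lies at chr15:8634124-8710764 on the minus strand. It measured 4.00, 3.11, 3.83, 3.56 and 3.26 log2 CPM in controls and 1.99, 3.17, 2.42, 2.79 and 3.07 in APP/PS1. Its paired differences followed the order of those of Slc1a2 except that replicate 3 (−1.41) was more negative than replicate 4 (−0.77). The log2 fold change of Slc1a3 was −0.86 (SE 0.321, 95% interval −1.65 to −0.07, adjusted p = 0.594).

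Glul, which encodes glutamine synthetase, lies at chr1:153899944-153909723 on the plus strand. It measured 10.77, 10.98, 10.83, 10.74 and 10.82 log2 CPM in controls and 11.04, 10.83, 10.997, 11.09 and 11.01 in APP/PS1. Glul was higher in APP/PS1 in 4 of 5 pairs and lower in pair 2, the mirror of the pattern of the 2 transporters. Its log2 fold change was 0.17 (SE 0.0799, 95% interval −0.03 to 0.36, adjusted p = 0.707). Teddm2, on the opposite strand and at 2.96 log2 CPM, overlaps exons of Glul. In the wider list of glutamate, glutamine and GABA handling, 9 of 17 measured genes were higher and 8 lower in APP/PS1, with a median of 0.01, and 3 were lower at an unadjusted p under 0.05, beside 5.91% of all genes. The 8 genes of that list on the lower side of this midpoint had a median difference of −0.57, and the 9 on the upper side had 0.10. Slc6a11, the astrocyte GABA transporter GAT-3, had −1.49 (adjusted p = 0.653). At the other end, the amino acid carriers Slc7a5 and Slc38a2 had 0.16 and 0.19 (adjusted p = 0.666 and 0.828).

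Gap junctions of astrocytes are built from connexin 43 and connexin 30, encoded by Gja1 and Gjb6. Gja1 (chr10:56377330-56402513, plus strand) measured 7.14, 7.31, 7.08, 6.82 and 7.10 log2 CPM in controls and 7.32, 7.14, 7.38, 7.60 and 7.36 in APP/PS1. Its log2 fold change was 0.27 (SE 0.132, 95% interval −0.05 to 0.60, adjusted p = 0.714), with replicate 4 the most positive pair (0.78) and replicate 2 the single negative one (−0.17). Without replicate 4 the value of Gja1 was 0.14. Gjb6 (chr14:57123303-57133611, minus strand) measured 0.15, −1.62, −0.48, −0.75 and −0.81 log2 CPM in controls and −3.65, −0.62, −1.70, −1.47 and −1.33 in APP/PS1. The lowest Gjb6 value, in APP/PS1 replicate 1, rested on 1 corrected count. Its log2 fold change was −1.05 (SE 0.648, 95% interval −2.65 to 0.55, adjusted p = 0.788), and without replicate 1 the value was −0.37. Of 19 connexins 6 were measured, 3 higher and 3 lower in APP/PS1. The lowest difference was that of Gjc3, a connexin of oligodendrocyte lineage cells, with −1.74 (adjusted p = 0.368) and lower in 5 of 5 pairs. The arterial connexins Gja4 and Gja5 had 0.26 and −0.14 (adjusted p = 0.875 and 0.831).

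Aqp4 encodes aquaporin-4, the water channel that lines the vascular face of the endfoot. It measured 0.36, −0.94, 0.30, 0.12 and −0.65 log2 CPM in controls and −2.22, −0.28, −1.77, −1.55 and −0.48 in APP/PS1. In replicates 1, 3 and 4 the difference was −2.57, −2.07 and −1.66 log2 units, whereas replicates 2 and 5 had differences of 0.66 and 0.17 in the other direction. Aqp4 had a log2 fold change of −1.09 (SE 0.531, 95% interval −2.40 to 0.22, adjusted p = 0.713), and −0.72 without replicate 1. The lowest library held 4 corrected counts.

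Genes that anchor the endfoot channels to the basement membrane also differed by level. Of 16 measured genes of this list, 6 were higher and 10 lower in APP/PS1, with a median of −0.09. All 8 genes below the midpoint level had negative differences (median −0.52), and 3 of them passed an unadjusted p under 0.05. Among the 7053 genes on that side of the midpoint, 61.2% were lower and 9.98% were lower at that p. Dtna, the dystrobrevin of the astrocyte complex, had −1.21 (adjusted p = 0.617). For the 8 genes on the upper side the median was 0.01. Among them dystroglycan, Dag1, had 0.01 (adjusted p = 0.970), and Utrn and Lamc1, which endothelial cells also transcribe, had 0.11 each (adjusted p = 0.721 for both). Megf10, an engulfment receptor of astrocytes placed in this list, had −1.62 (adjusted p = 0.726) and a library with 0 corrected counts.

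Aldoc, the aldolase isoform of brain astrocytes, lies at chr11:78322968-78327781 on the plus strand. It measured 3.01, 0.97, 2.79, 2.77 and 2.21 log2 CPM in controls and −0.79, 2.28, 0.53, 0.40 and 1.38 in APP/PS1. Aldoc had the widest paired differences of the 10 genes, from −3.81 in replicate 1 to 1.31 in replicate 2. The log2 fold change was −1.59 (SE 0.720, 95% interval −3.37 to 0.18, adjusted p = 0.681), and −1.04 without replicate 1. Aldoa, the aldolase that most cells use, had 0.02 (adjusted p = 0.968).

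Sparcl1 encodes hevin, a secreted matricellular protein that astrocytes use to promote synapse formation, and lies at chr5:104079111-104113733 on the minus strand. It ranged from 11.02 to 11.27 log2 CPM in controls and from 11.03 to 11.29 in APP/PS1. The log2 fold change was 0.09 (SE 0.0822, 95% interval −0.12 to 0.29, adjusted p = 0.851), with values from 0.04 without replicate 3 to 0.17 without replicate 2. Its paralog Sparc had −0.01 (adjusted p = 0.973).

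**Figure D3:**
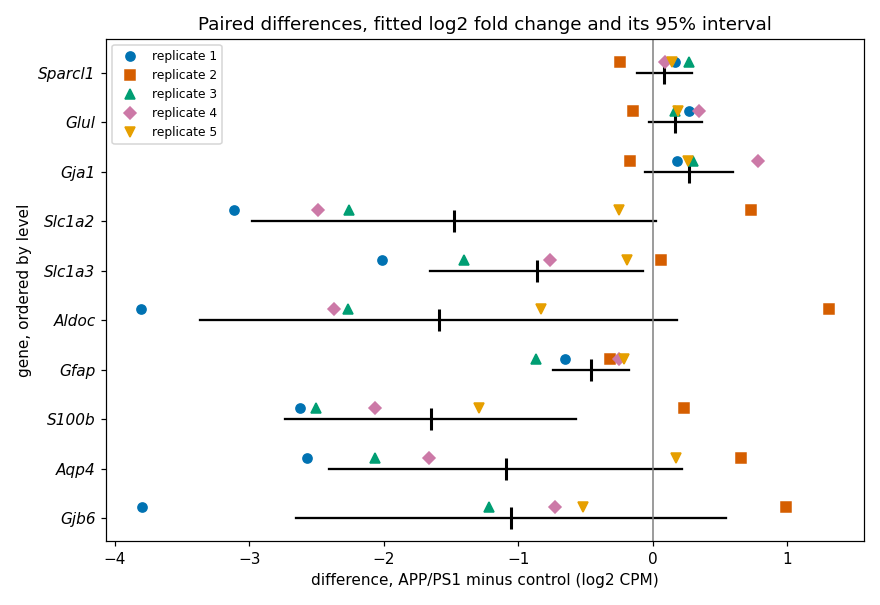
Paired differences, APP/PS1 minus control in log2 CPM (horizontal axis), of the 10 genes ordered by level; coloured points are the 5 pairs, black ticks the fitted log2 fold change and black lines its 95% interval. The interval lies wholly below 0 for Slc1a3, Gfap and S100b, and replicate 2 is the most positive pair of 6 of the 7 low genes.

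The size of the difference depended on the pair. In pairs 1, 3 and 4 all 7 low genes were lower in APP/PS1, with medians of −2.62, −2.07 and −1.66 log2 units. In pair 5, 6 of the 7 were lower, with a median of −0.25. In pair 2, 1 of the 7 was lower (Gfap), with a median of 0.66. Pair 1 gave the most negative difference of 6 of the 7 low genes, Gfap being the exception. The 3 high genes took the opposite course: 3 of 3 were higher in pairs 1, 3, 4 and 5, and 0 of 3 in pair 2. The pattern of lower in pairs 1, 3, 4 and 5 and higher in pair 2 was shown by 5 of the 10 genes, all among the 7 low genes. It was shown by 8.35% of all genes and by 11.3% of genes of like level (within the range of the 7 low genes). Its mirror was shown by 3 of the 10, the 3 high genes, beside 8.81% of all genes. Both patterns were read from these same genes, so the counts describe them and test nothing. The summed level of the 7 low genes was 67.7, 24.5, 61.6, 59.1 and 37.0 CPM in controls 1 to 5 and 10.6, 36.9, 15.5, 16.3 and 28.4 CPM in APP/PS1. Without replicate 2, 9 of the 10 genes went 1 way in all remaining pairs, beside 25.2% of all genes, and 9 had an unadjusted p under 0.05, beside 14.2% of all genes, yet none of the 10 passed the adjusted threshold. With replicates 2, 4 and 5 only, which leaves out the shallowest pair (1) and the pair with the most genes at 0 (3), the median over the 10 genes was −0.27 and 1 gene had an unadjusted p under 0.05, beside 3.21% of all genes.

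A fold change larger than 2-fold downward (below −1 on the log2 scale) was fitted for 5 of the 10 genes (Aldoc, Aqp4, Gjb6, S100b and Slc1a2), beside 1.42% of all genes. Without replicate 1 the count was 3 (Aldoc, S100b and Slc1a2), and with replicates 2, 4 and 5 only it was 1 (S100b). Genes of low level differ more widely in these data. Among the 5795 genes within the level range of the 7 low genes, 2.67% were below −1, 10.9% were lower at an unadjusted p under 0.05, and 61.2% were lower at all, with a median of −0.04. The 7 low genes had a median of −1.09.

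**Figure D4:**
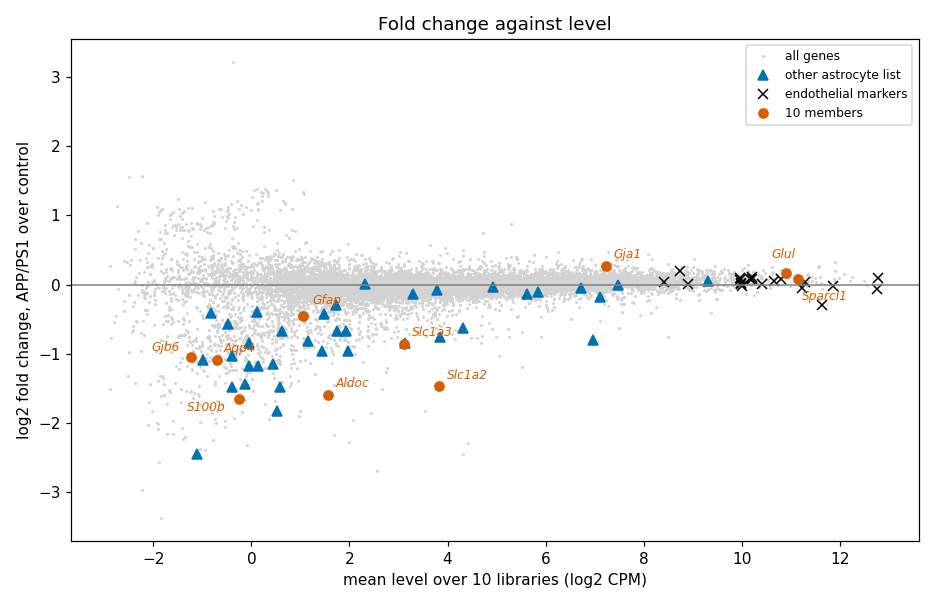
Fitted log2 fold change of APP/PS1 over control (vertical axis) against the mean level over 10 libraries in log2 CPM (horizontal axis); grey dots are all 14106 genes, orange circles the 10 genes, blue triangles 36 other astrocyte genes and crosses 20 endothelial markers. The 7 low genes lie between −0.46 and −1.65, and Gja1, Glul and Sparcl1 lie slightly above 0 among genes of high level.

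Other astrocyte genes were compared as a list that holds none of the 10. Of 42 listed, 36 were measured, and 34 of these were lower and 2 higher in APP/PS1, with a median of −0.67. Over all genes, 7308 were lower and 6798 higher. At an unadjusted p under 0.05, 10 of the 36 were lower, beside 5.91% of all genes, and none higher. Of the 27 below the midpoint level, 8 were lower at that p, beside 9.98% of all genes on that side. In all 5 pairs 4 were lower, beside 5.00% of all genes. Kcnj10, the Kir4.1 channel of the endfoot, went from 1.43 ± 0.63 in controls to −0.40 ± 0.87 log2 CPM in APP/PS1 (SD, n = 5), which is −1.83 as fitted (adjusted p = 0.563). Dio2, the deiodinase that activates thyroid hormone in astrocytes, had the lowest value of the list, −2.45 (adjusted p = 0.569). Mlc1, a membrane protein of perivascular endfeet, had −1.18 (adjusted p = 0.635), and the pan-astrocyte marker Aldh1l1 had −0.40 (adjusted p = 0.924). The 2 genes with positive values were Id4 (0.01, adjusted p = 0.977) and the glutamine carrier Slc38a3 (0.05, adjusted p = 0.889), which is also a carrier of brain endothelium. As among the 10 genes, level went with the size of the difference: over 27 genes below the midpoint level the median was −0.84, and over the 9 above it −0.10. The median of the list by pair was −2.10, 0.13, −0.98, −0.46 and −0.15, so that pair 1 was again the most negative and pair 2 again positive.

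Genes that reactive astrocytes switch on were divided. Of 28 measured genes of this list, 17 were higher and 11 lower in APP/PS1, with a median of 0.04. At an unadjusted p under 0.05, 1 was lower and 1 higher, beside 5.91% and 2.13% of all genes. The list has a high level, with 19 genes above the midpoint (median difference 0.04) and 9 below it (0.00). The values ran from −0.53 for S1pr3 (adjusted p = 0.569), a sphingosine 1-phosphate receptor, and −0.50 for Lcn2 (adjusted p = 0.815), lipocalin-2, to 0.38 for Emp1 (adjusted p = 0.848) and 0.60 for Cd109 (adjusted p = 0.815). Vim, the intermediate filament that reactive astrocytes share with endothelial cells, had 0.12 (adjusted p = 0.878). Family relatives of the 10 genes were divided evenly, with 9 of 18 higher and 9 lower and a median of 0.00. Des, the filament of mural cells, had −0.82 (adjusted p = 0.594) and was lower in 5 of 5 pairs. S100a9 had −0.29, S100a6 0.45 and Smoc2 0.61 (adjusted p = 0.903, 0.731 and 0.754).

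Markers of several other cell types were also lower in APP/PS1. All 14 measured of 15 mural markers were lower in APP/PS1, 12 at an unadjusted p under 0.05 (beside 5.91% of all genes), with a median of −0.77 and a summed level of 656 to 1088 CPM in controls and 330 to 628 CPM in APP/PS1. Their medians by pair were −1.62, −0.25, −0.62, −1.40 and −0.01, so that pair 2 was negative, unlike that of the low astrocyte genes. Among these, Rgs5 had −0.76 and Kcnj8 −0.94 (adjusted p = 0.607 and 0.580). Of 10 measured of 14 oligodendrocyte markers, 9 were lower, with a median of −2.11, from −3.38 for Ermn to −0.09 for Mal among the named genes, and a summed level of 784 to 1202 CPM against 674 to 956 CPM. By pair the oligodendrocyte medians were −3.59, 0.86, −1.64, −3.37 and −2.08. In pair 2, besides these, the median was 0.07 for neuron markers and 0.25 for microglia markers. It was −0.33 for precursor cell, −0.48 for fibroblast and −0.73 for choroid and ependyma markers. Of 11 measured of 12 markers of oligodendrocyte precursor cells, 9 were lower (median −0.74), with Gpr17 at 0.03 and a summed level of 74.9 to 100.2 CPM against 62.2 to 74.4 CPM. Of 8 measured of 15 neuron markers, 7 were lower (median −0.57), from −2.28 for Camk2a to 0.02 for Stmn2 among the named genes, with a summed level of 123 to 153 CPM against 115 to 137 CPM. The oligodendrocyte and neuron sums are weighted towards the highest gene of each list, Mal (9.64 log2 CPM in controls) and Stmn2 (6.65). Both changed little, so these sums say little about the other markers of their lists. Ermn and Megf10 were at 0 corrected counts in at least 1 library. Fibroblast markers had a median of −0.49 with 7 of 7 lower, among them Apod (−0.28) and Dcn (−0.68), and choroid and ependyma markers −0.63 with 6 of 7 lower, among them Ttr (−1.03) and Clic6 (−1.46). All 4 erythroid markers were lower (median −1.16, with Hbb-bt and Hbb-bs at −1.20 and −1.19), but their medians by pair were −1.58, −3.33, −3.98, 0.83 and 2.35. Microglia markers were divided, 6 higher and 7 lower with a median of −0.03, with Sall1 at −0.80. Endothelial markers had a median of 0.03, with 15 of 20 higher and Slc2a1 at −0.06 and Vwf at −0.30. No marker of any of these lists had an adjusted p under 0.05. The part of the cell make-up of the isolates in the differences of the astrocyte genes was not tested.

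**Figure D5:**
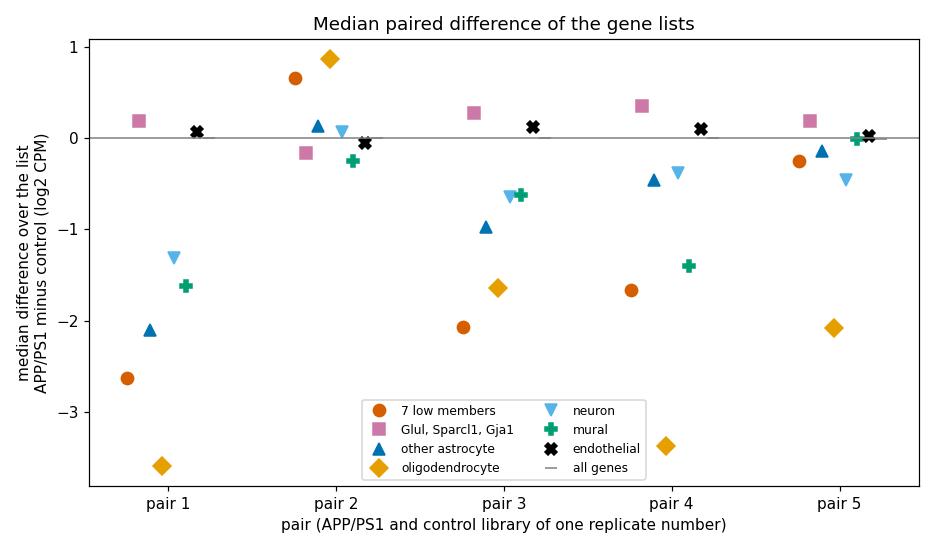
Median paired difference, APP/PS1 minus control in log2 CPM (vertical axis), of each gene list in the 5 pairs (horizontal axis); each symbol is the median over the genes of a list. In pair 2 the 7 low genes (0.66) and oligodendrocyte markers (0.86) lie above 0, and in pairs 1, 3 and 4 both lie below −1.6, while endothelial markers stay near 0 in every pair.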

How the data were processed

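BECs of 10 libraries, 5 APP/PS1 and 5 control, were grouped by their labels. By the methods, the authors aligned reads to mm10 with STAR, counted them with HTSeq-count, removed genes of low count with filterByExpr, took log CPM with edgeR and corrected batches with ComBat. Versions and the strand setting are not given in the sources used here. The deposited log2 CPM of 14106 genes equalled the 10 files per library. With a prior count of 3, 100% of the values in each library came back as whole numbers (tolerance 0.01), which are corrected counts. Since they are no longer reads, no counting error is given for them here, but that of the reads behind them remains. Such whole numbers are not what ComBat leaves on log values, so the order of the steps remains unclear.

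The linear model of limma 3.58.1 (R 4.3.3; lmFit, eBayes without trend) was fitted to the deposited log2 values of all genes, with genotype and replicate number as terms. The pairing follows the replicate numbers, while the labels give 4 batches, in which replicates 4 and 5 share batch 4. Deviations from the group means within a pair had rank correlations of −0.999 to −0.989 over 10873 genes, a sign that the batch correction fixes, so they do not test the pairing. An exact sign-flip test of 5 pairs cannot go below p = 0.0625. Symbols, positions and exon lengths came from GENCODE M21, in which 14106 genes were found, and promoters from RefSeq.

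The 10 genes and all lists were chosen with earlier results of these data known. Named genes were the 2 highest and 2 lowest differences of each astrocyte list, a set of known astrocyte genes, and for each cell type marker list the gene of highest level per length and that of the largest absolute difference, with the 3 genes whose paired differences were nearest to those of Gfap and of Aqp4. Gjb2, also on this list, was not analysed here. Some genes that the rule names are not reported here. Fits were tested on simulated data. The alternatives were no block, the 4 batches, a trend in eBayes, library size or median-of-ratios scaling, limma-voom, a prior count of 0.125, a mean of at least 1 log2 CPM, and each replicate left out. Replicates 2, 4 and 5 only was added after the values were seen.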

Additional observations from a re-analysis of the deposited data

How the results depend on the processing

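No adjusted call among the 10 genes was found under 13 of 14 alternatives. The exception was the fit with no replicate block, with 2 calls and 8 genes at an unadjusted p under 0.05 (beside 21.6% of all genes). That count was 3 in the reported fit (8.03% of all genes in either direction), 5 with a trend in eBayes (8.23%), 5 with limma-voom and the replicate block (7.32%), 1 with replicates 2, 4 and 5 only (3.21%), and 2 to 9 when 1 replicate was left out, the 9 being without replicate 2. The count of genes going the same way in all pairs was 1 to 9 over these omissions, again 9 without replicate 2. The adjusted p of Gfap ranged from 0.0223 to 1.00 and that of S100b from 0.0331 to 1.00 over the alternatives. Removing the block, or using the 4 batches in its place, could not move a fitted difference. Each replicate number and each batch holds as many APP/PS1 as control libraries. Over all genes, 648 were called with no replicate block, 5 without replicate 2, 1 without replicate 5, 1 with the 4 batches and 0 under the other 10 alternatives.

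The median over the 10 genes stayed negative, from −1.31 (without replicate 2) to −0.27 (replicates 2, 4 and 5 only), and was −0.49 without replicate 1. The filter at a mean of 1 log2 CPM removed Aqp4, Gjb6 and S100b and gave −0.46 over the other 7. Sparcl1 changed sign to −0.0018 with replicates 2, 4 and 5 only, and every other gene kept its sign wherever it was fitted. Scaling moved the median of all genes to −0.04 at most. Depth limits Gjb6, Aqp4 and S100b most, with libraries of 1, 4 and 6 corrected counts.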

Other observations

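Genes with paired differences nearest to those of Gfap, over 5 pairs and among genes of at least 0 log2 CPM, were Slc6a9 (root mean square distance 0.0653 log2 units), a glycine transporter, Klk8 (0.113) and Evc (0.115). Their log2 fold changes were −0.44, −0.51 and −0.39. Those nearest to Aqp4 were Ttyh1 (0.432), Sgip1 (0.437) and Gpr37l1 (0.518), with log2 fold changes of −0.96, −0.997 and −1.15. Ttyh1 and Gpr37l1 belong to the list of other astrocyte genes. The distances to Aqp4 are several times those to Gfap, whose own paired differences are small.

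A search for a library far from the others, by the gap of the highest or lowest library over the range of its group, found 0 in 20 groups (10 genes in 2 genotypes, critical value 0.71). For groups of independent libraries chance gives about 1 in 20. Here the batch correction makes the 2 groups of a gene mirror each other, so the 20 groups are not independent and that rate is only a guide.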
